A study of Mus musculus with 32 samples.

Results

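This comparison sets the Scnn population of the mouse cortex against the CamK population of the mouse cortex, chosen by the names of the library columns and the tissue labels. It holds 8 of the 32 libraries of the series, 4 for each population. In every library the RNA is labelled as ribosome-associated and the genotype as WT, in both groups alike. The Cre or transgene alleles, the tag used to purify ribosomes, and the age and sex of the animals are not given in those labels, and nothing in the labels says whether replicates came from separate animals. If they did not, p-values measure only the spread between these libraries.

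As background, and not from the labels, CamK drivers are named after a calcium/calmodulin-dependent kinase that is abundant in excitatory neurons of the forebrain, and they mark pyramidal neurons across many cortical layers. Scnn drivers are named after a subunit of an epithelial sodium channel. In the cortex they are best known for marking excitatory neurons of layer 4, the layer that receives much of the sensory input from the thalamus. Isolating RNA bound to ribosomes from such a population records the transcripts that its cells engage for translation, together with whatever RNA of neighbouring cells is carried along.

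The rows of the deposited table are features known only by an identifier, GSMG and a number, and no gene symbol stands beside it in the files. None of the identifiers occurred in the reference tables used here (0 matches). The driver genes, the excitatory and layer markers and the markers of other cell types could therefore not be looked up, so the labels of both populations are unchecked and the part of other cell types in any difference was not tested. In RNA from a whole population, more cells of a type and more RNA per cell cannot be told apart. For the same reason no sequence is shown.

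Deposited counts summed to between 105524011 and 109578502 in the Scnn libraries and between 105163128 and 107450091 in the CamK libraries, so depth was close to equal. The Scnn libraries were less alike than the CamK libraries. The common biological coefficient of variation, the spread between replicates beyond counting error, was 0.324 within Scnn and 0.202 within CamK, and without Scnn replicate 2 the Scnn value was 0.256. Of the features whose group mean reached 5 CPM (counts scaled to a common library total by TMM), 84 of 10794 ranged over more than 4-fold within Scnn and 14 of 10710 within CamK. Scnn replicate 2 was the highest library in 77 of those 84 features, and 66 of the 84 were also called higher in Scnn than in CamK. Scnn replicate 2 thus stood apart from the other Scnn libraries, and the main counts are also given without it.

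Of 24555 features tested, 4811 (19.6%) differed between the populations by at least 2-fold with an edgeR adjusted p under 0.05, which is what a call means throughout. The Scnn population was higher in 3353 features (13.7%) and lower in 1458 (5.94%). Without Scnn replicate 2, 2859 were higher and 1494 lower, and 2716 of the 3353 and 1309 of the 1458 remained called in the same direction. Over all calls, the differences toward Scnn were larger than those toward CamK, most of all among faint features. Features higher in Scnn had a median log2 fold change of 2.95, and features lower in Scnn one of -1.60, against -0.01 over all features tested. Among features with a mean under 1 CPM over the 8 libraries these medians were 3.32 and -2.08. At 100 CPM or more they were closer in size, at 1.7 and -1.3. At 4-fold or more 2464 features were higher and 468 lower, and at 32-fold or more 472 were higher and 50 lower.

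Part of the largest estimates rested on features without any count on one side. Of the features higher in Scnn, 442 had 0 counts in all 4 CamK libraries, and of those lower in Scnn, 56 had 0 counts in all 4 Scnn libraries. The former were faint in Scnn too, with a median of 0.0746 CPM and a highest group mean of 0.457 CPM. With such features set to a floor of 3 counts over the 4 libraries of a group, the median log2 fold change of the features higher in Scnn was 2.82. Since a fragment appears to add about 2 counts, this floor is lenient and not a strict bound. With that floor 1464 features exceeded 8-fold toward Scnn and 141 exceeded it toward CamK, where the fitted values gave 1621 and 173. Counting only features with counts in both groups, 1179 exceeded 8-fold toward Scnn and 117 toward CamK. The fitted numbers were 1357 and 206 without Scnn replicate 2, 961 and 70 in a fit of the 8 libraries alone, and 575 and 33 when features needed 1 CPM in 4 libraries.

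**Figure D1:**
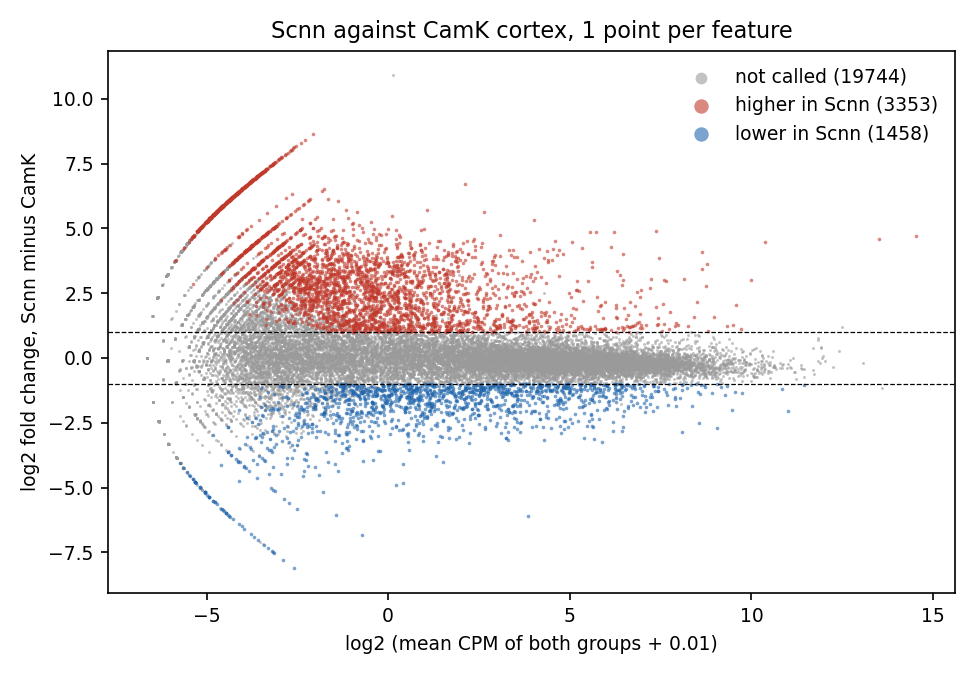
Log2 fold change of Scnn minus CamK (vertical axis) against the log2 of the mean CPM of both groups plus 0.01 (horizontal axis), 1 point per feature; dashed lines mark 2-fold. The 3353 features higher in Scnn lie mostly at low abundance and reach larger fold changes than the 1458 lower ones; the arcs at the left are features with few or no counts in 1 group.

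The differences were visible library by library. All 4 Scnn libraries lay above all 4 CamK libraries in 4080 features (16.6% of those tested) and below them in 5001 (20.4%). This balance turned with the scaling, to 4752 above and 4112 below with RLE scaling and to 4707 and 3809 with library totals. Among the called features, 77.9% of those higher in Scnn and 89.9% of those lower in Scnn showed no overlap. The calls were made on these same libraries, so the 2 shares are a description only. For 11504 features (46.8%) the 95% interval of the fold change lay within 2-fold either way. Another 8167 were neither called nor bounded within 2-fold.

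The direction of the calls changed with abundance. Among features with a mean under 1 CPM over the 8 libraries, 2300 were higher and 536 lower in Scnn. Between 1 and 10 CPM the numbers were 803 and 524. Between 10 and 100 CPM the order turned, with 199 higher and 324 lower, and at 100 CPM or more 51 were higher and 74 lower. Without Scnn replicate 2 the numbers in these 4 classes were 2014 and 514, 626 and 551, 172 and 352, and 47 and 77. Calls were also rarer among abundant features, at 5.78% of those at 100 CPM or more against 28% of those under 1 CPM, although fold changes were more precise there, with a median standard error on the log2 scale of 0.09 against 0.86. The excess of higher calls among faint features held under the other scalings tried. The excess of lower calls among abundant ones did not in the top class, where RLE scaling gave 59 higher and 57 lower. Leaving out CamK replicate 1, 2, 3 or 4 also turned the order in that class, to 66 and 57, 62 and 53, 60 and 57, and 63 and 58. From 10 to 100 CPM RLE scaling left 217 higher and 265 lower.

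**Figure D2:**
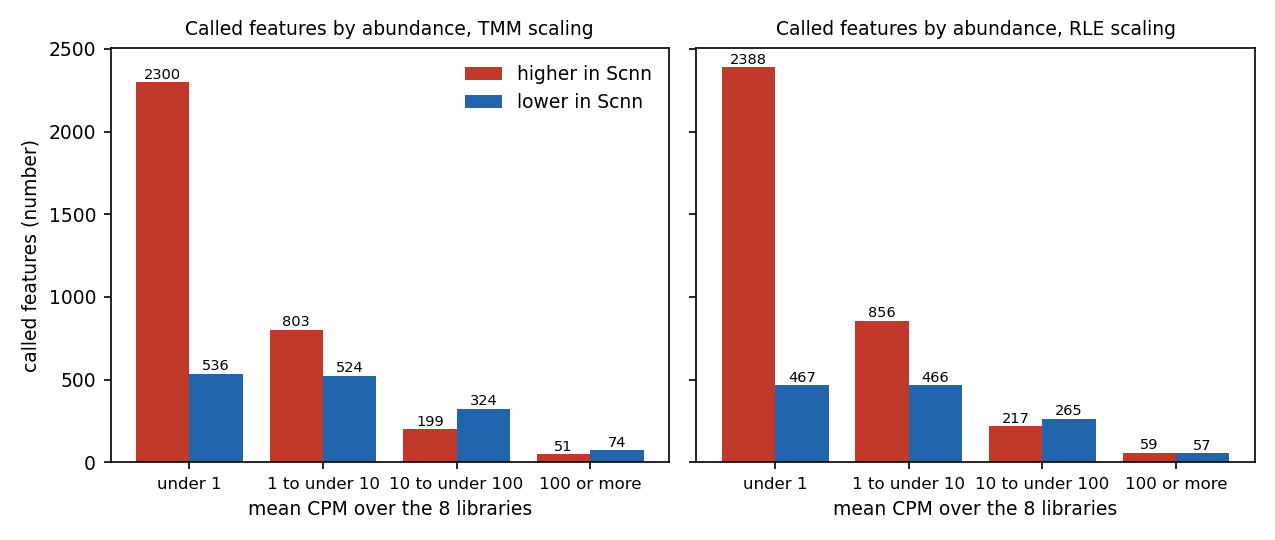
Number of called features higher (red) and lower (blue) in Scnn than in CamK, by mean CPM over the 8 libraries, with TMM scaling at the left and RLE scaling at the right. Under 1 CPM the higher features outnumber the lower ones with both scalings (2300 and 536, 2388 and 467), while at 100 CPM or more the order differs between the scalings (51 and 74, 59 and 57) and also turned when any 1 CamK library was left out.

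Below the fold threshold, the abundant features shifted toward CamK by small amounts. At an adjusted p under 0.05 with no fold threshold, 10234 features (41.7%) passed. The 5423 of them with less than a 2-fold difference were mostly lower in Scnn, 4022 against 1401 higher. In the class of 100 CPM or more, 1077 were lower and 159 higher. In that class lower ones prevailed under every scaling tried, with 840 lower and 230 higher under RLE scaling. The balance over all classes depended more on the scaling. With RLE scaling 3099 of the small differences were lower and 1919 higher, and over all folds 55.5% of the passing features were higher in Scnn, against 46.5% with TMM.

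The features of each direction were followed as a share of all counts in each library. Those higher in Scnn took 7.71%, 17.7%, 5.78% and 10.8% of the counts in Scnn replicates 1 to 4, and 1.12%, 1.05%, 1.18% and 1.27% in the CamK replicates. The lowest Scnn library was still above every CamK library, but the Scnn libraries were far from alike. Much of that variation lay in few features. Exactly 4 features exceeded 1% of the counts of any of the 8 libraries, and their joint share was 5.98%, 14.9%, 4.13% and 8.04% in Scnn and between 1.8% and 2.52% in CamK. Not all 4 were called higher in Scnn, so this joint share also holds counts from outside that set. Without these 4, the features higher in Scnn took 3.34%, 5.56%, 3.36% and 4.33% in Scnn and between 0.887% and 0.945% in CamK. These sets were chosen by the same libraries, so their shares are a description with no test.

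The features lower in Scnn behaved more evenly. They took 2.08%, 2.09%, 2.07% and 1.97% of the counts in Scnn replicates 1 to 4, and 5.14%, 5.35%, 5.19% and 5.01% in the CamK replicates. No Scnn library, the deviating replicate 2 included, approached the CamK level. At 1 CPM or more, between 710 and 759 of these 1458 features were present in each Scnn library and between 1007 and 1039 in each CamK library. Of the 3353 features higher in Scnn, between 1179 and 1579 reached 1 CPM in each Scnn library and between 530 and 590 in each CamK library.

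**Figure D3:**
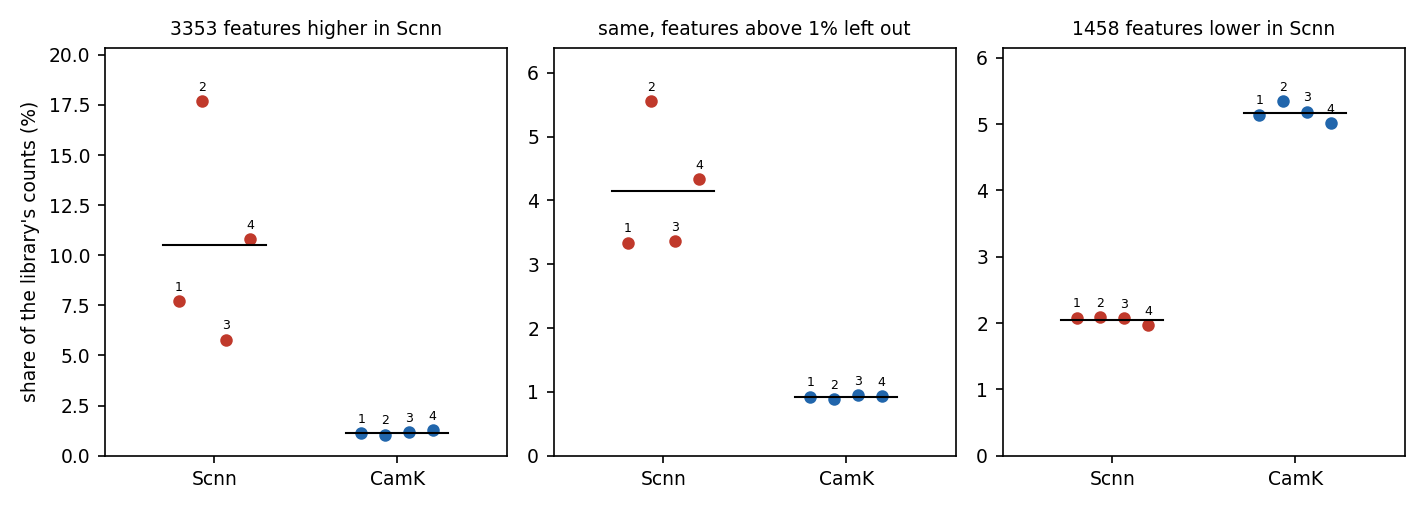
Share of each library's counts (%) in the features called higher in Scnn (left), in the same set after leaving out the 4 features above 1% (middle) and in the features called lower in Scnn (right); points are libraries with their replicate number, lines are group means. Scnn replicate 2 is high in the left and middle panels (17.7% and 5.56%), while in the right panel the 4 Scnn libraries lie between 1.97% and 2.09%.

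Among those 4 abundant features, a pair was called higher in Scnn. One ran from 1.59% to 9.09% of the counts in the Scnn libraries and from 0.127% to 0.222% in the CamK libraries, and the other from 0.971% to 3.88% and from 0.0505% to 0.138%. The groups did not overlap for either feature, but the Scnn libraries ranged over several-fold for both. The remaining pair was not called. One of them ran from 0.438% to 1.29% in Scnn and from 1.09% to 2.05% in CamK (adjusted p = 0.0619 in edgeR), and the other from 0.279% to 1.53% and from 0.216% to 0.496% (adjusted p = 0.0795).

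As single measures of a library, the count of features reaching 1 CPM was 14463 ± 234 (SD, n = 4) in Scnn and 13938 ± 129 (n = 4) in CamK. All Scnn libraries lay above all CamK libraries (p = 0.0286 in a two-sided exact permutation test, which with 4 against 4 cannot go lower, and adjusted p = 0.0429 over 3 measures). The difference lay among faint features, since at 5 CPM it was 41.5 features (exact permutation p = 0.771). The 100 most abundant features took 26.1% ± 3.67 of the counts in Scnn and 21.4% ± 0.361 in CamK (exact permutation p = 0.0286, adjusted p = 0.0429). Without the 4 features above 1% that measure was between 19.5% and 20.1% in Scnn and between 19.8% and 20.3% in CamK, a difference of -0.206 percentage points (exact permutation p = 0.286).

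Features higher in Scnn were longer than those tested in general. Their median deposited length was 2058, read as bases, against 1716 for features lower in Scnn and 1639 over all features tested. The same order of higher over all was seen in each abundance class, for instance 2109 against 1872 under 1 CPM and 1980 against 1467 between 1 and 10 CPM. Features lower in Scnn were above the class median from 1 CPM upward (1816 against 1371 between 10 and 100 CPM) and below it under 1 CPM (1737 against 1872). Between 10 and 100 CPM they were also longer than the features higher in Scnn, at 1816 against 1688. No separation of the libraries by length was detected: the count-weighted mean log2 length differed by 0.00761 between the groups (exact permutation test, two-sided p = 0.543, adjusted p = 0.543).

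Named features were those with the largest changes after taking off 2 standard errors, among called features with at least 5 CPM in the higher group and no overlap between libraries. The 506 features that met these conditions in the direction of Scnn were led by GSMG0033684, with a deposited length of 902. It was at 10.8, 10.7, 13.7 and 13 CPM in Scnn replicates 1 to 4, and at 0.234, 0.197, 0.327 and 0.21 CPM in the CamK replicates. The 4 Scnn libraries were close to each other and far above CamK. The log2 fold change was 5.63 (SE 0.41, edgeR adjusted p = 1.34e-12), or 49.6-fold. Its mean was between 0.226 and 1.71 CPM in the 6 groups outside this comparison, so that Scnn was the highest of the 8 groups.

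The second was GSMG0036387, with a length of 630. Its Scnn libraries were at 39.9, 57.8, 9.14 and 18.3 CPM and its CamK libraries at 0.213, 0.767, 1.26 and 0.849 CPM. The groups did not overlap, but both varied several-fold, and replicates 1 and 2 were the highest of Scnn. The log2 fold change was 5.34 (SE 0.64, edgeR adjusted p = 2.65e-07), and without Scnn replicate 2 it was 4.85 (edgeR adjusted p = 9.44e-07). In an edgeR fit of the 8 libraries alone the adjusted p was 0.00203, and 0.0238 when that fit also held the replicate number. The feature was present in interneuron groups as well, at 18.6 ± 1.93 CPM in VIP cortex, 10 ± 3.76 CPM in PV cortex and 5.49 ± 2.13 CPM in SST cortex (SD, n = 4 each). Per kilobase of deposited length, GSMG0036387 was at 49.7 CPM in Scnn and GSMG0033684 at 13.4 CPM.

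In the other direction 620 features met the conditions. GSMG0000011, with a length of 622, was at 0.174, 0.617, 0.322 and 0.188 CPM in Scnn replicates 1 to 4 and at 5.53, 4.43, 5.97 and 5.29 CPM in the CamK replicates. Its log2 fold change was -4.03 (SE 0.40, edgeR adjusted p = 1.1e-09). Every Scnn library was far below every CamK library. Among excitatory groups it was nearly limited to CamK cortex, with 0.0507 ± 0.0291 CPM in CamK hippocampus and 0.045 ± 0.045 CPM in Grik hippocampus, while SST hippocampus had 2.2 ± 0.358 CPM and SST cortex 1.8 ± 0.157 CPM.

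GSMG0036572, with a length of 1207, was an abundant feature. It stood at 107, 118, 101 and 106 CPM in CamK replicates 1 to 4 and at 11.1, 14.6, 8.54 and 11.5 CPM in the Scnn replicates. The spread within each group was small beside the gap. The log2 fold change was -3.24 (SE 0.12, edgeR adjusted p = 1.52e-19), or 9.45-fold lower in Scnn. Scnn was the lowest of all 8 groups, the next being SST cortex at 29.3 ± 0.929 CPM and PV cortex at 36.6 ± 4.57 CPM. CamK hippocampus was at 116 ± 9.29 CPM and VIP cortex at 72.3 ± 5.91 CPM.

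**Figure D4:**
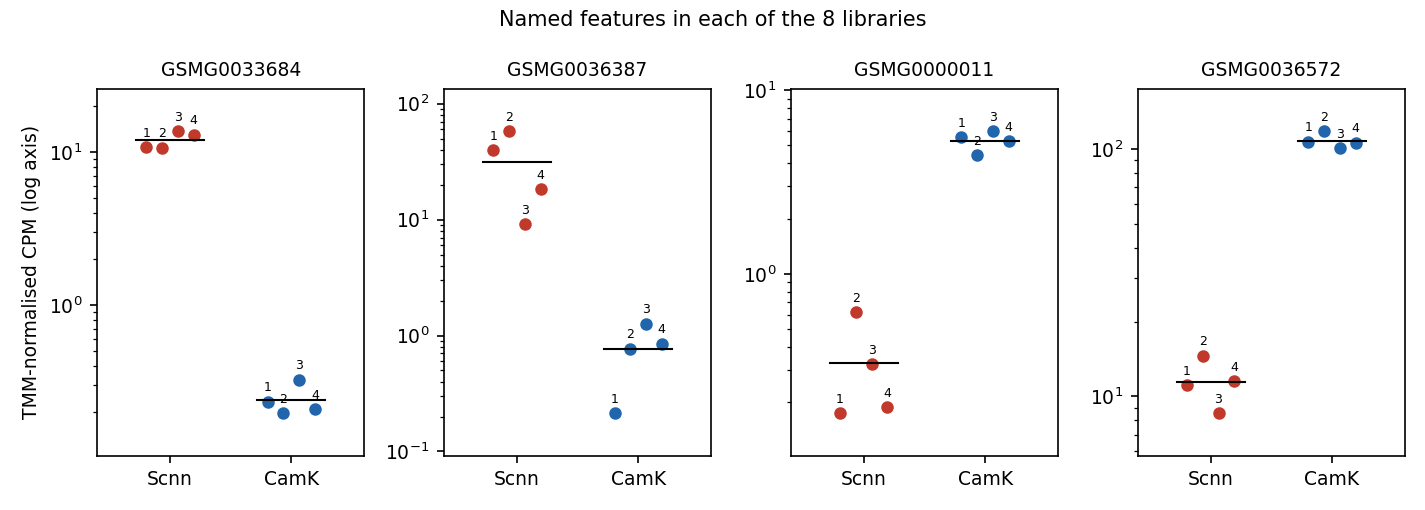
TMM-normalised CPM (log axis) of the 4 named features in each Scnn (red) and CamK (blue) library, labelled by replicate number, with the group mean as a line. The groups do not overlap in any panel; the Scnn libraries of GSMG0036387 spread from 9.14 to 57.8 CPM and those of GSMG0033684 from 10.7 to 13.7 CPM.

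Features present in one of these populations and nearly absent from the other were few. With at least 5 CPM in one population and under 0.5 CPM in the other, 30 features were on the side of Scnn and 2 on that of CamK. Levels in the other groups were not part of this rule. Of the called features at 5 CPM or more in their higher group, 533 were higher in Scnn and 627 in CamK. The populations therefore differed at moderate abundance mostly by degree.

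The called features were also examined in 4 comparisons that hold neither Scnn nor CamK cortex libraries. Those libraries did enter the same fit, and with it the filter, the scaling and the estimate of spread behind the calls. The first was VIP cortex against CamK hippocampus, in which population and region both differ. Of the 3353 features higher in Scnn, 2666 (79.5%) were higher in VIP there and 94 (2.8%) lower, against 24.9% and 9.27% of all features tested. Their median log2 fold change was 3.19, against 0.12 over all. Those 2666 made up 43.6% of all features higher in VIP. The number higher in both Scnn and VIP was 2236 of 2859 without Scnn replicate 2. It was 2058 of 2659 with Scnn calls from a fit and filter of the 8 libraries alone. In that last case the VIP calls still came from the fit of all 32 libraries. In the main fit the share was as high as 82% among features under 1 CPM, where 40.4% of all features were higher in VIP. It was 52.9% (27 of 51) at 100 CPM or more, where 3.65% were. The filter of the main fit ran over all 8 groups, so faint features could pass it through the VIP libraries, which favours this overlap. How many did was not counted.

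SST against CamK within the hippocampus was the second comparison. There 1552 of the features higher in Scnn (46.3%) were higher in SST and 5.58% lower, against 16.1% and 10.7% of all features tested, and the median log2 fold change was 1.58. Grik against CamK in the hippocampus compares a pair of excitatory populations, of which Grik is known as background to mark area CA3. In it 775 (23.1%) were higher in Grik and 158 (4.71%) lower, against 6.99% and 6.4% of all features, and the 775 made up 45.1% of all features higher in Grik. PV against SST in the cortex, a pair of interneuron classes, held 377 (11.2%) higher in PV and 196 (5.85%) lower, against 6.08% and 9.08% of all features. As with VIP, faint features could pass the filter through the libraries of the groups compared here, which favours calls in these comparisons. How many did was not counted. The first 3 of these comparisons share the CamK hippocampus libraries. All libraries of those 3 carry a W in their titles, which the Scnn, CamK, PV and SST cortex libraries lack, and its meaning is not given.

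The features lower in Scnn were followed in the same way. In VIP cortex against CamK hippocampus 483 of the 1458 (33.1%) were lower in VIP and 271 (18.6%) higher, against 9.27% and 24.9% of all features. In SST against CamK hippocampus 531 (36.4%) were lower in SST and 246 (16.9%) higher, against 10.7% and 16.1%. In Grik against CamK hippocampus 305 (20.9%) were lower in Grik and 178 (12.2%) higher, against 6.4% and 6.99%, so that this set was called more often in both directions there. In PV against SST cortex 529 (36.3%) were lower in PV and 113 (7.75%) higher, against 9.08% and 6.08% of all features. The share of this set that was lower in PV than in SST interneurons was thus about that found lower in SST than in CamK of the hippocampus.

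**Figure D5:**
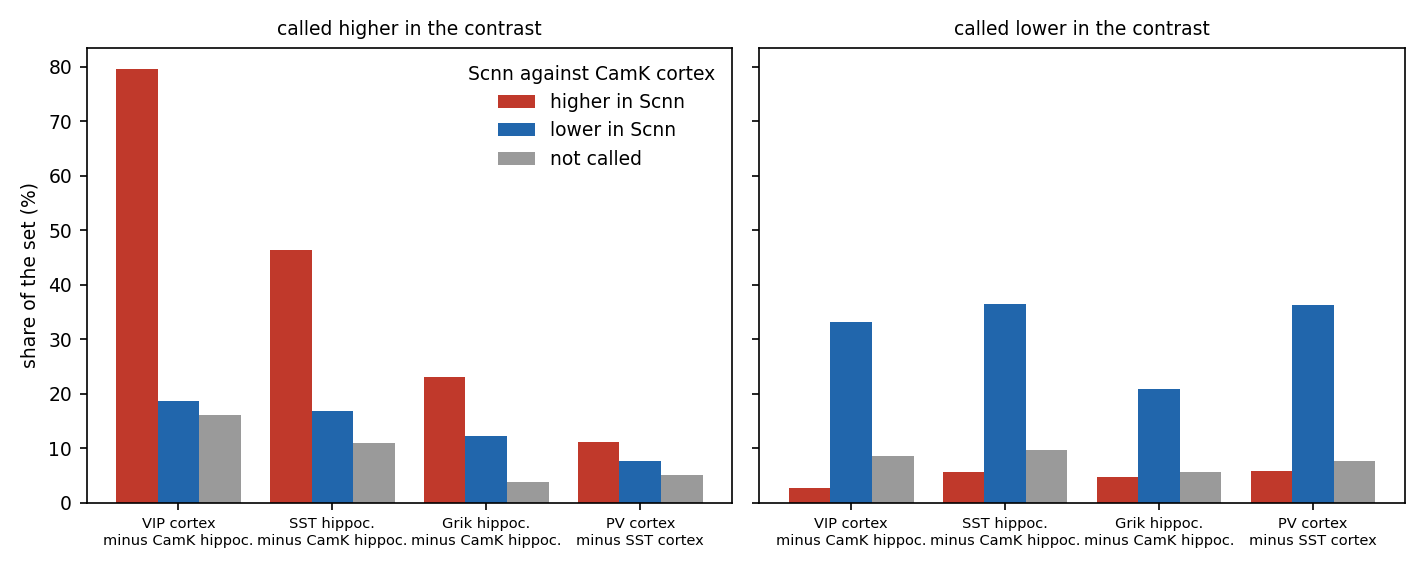
Share (%) of the features called higher in Scnn (red), lower in Scnn (blue) and not called (grey) that were themselves called higher (left) or lower (right) in 4 comparisons with no Scnn or CamK cortex library. The red bar reaches 79.5% for VIP cortex against CamK hippocampus, beside 16.1% of features not called; the blue bars at the right lie between 20.9% and 36.4%.

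Levels of the set higher in Scnn were compared across the 8 groups. Its median level was 0.669 CPM in Scnn, 0.98 CPM in VIP cortex, 0.349 CPM in PV cortex, 0.328 CPM in SST hippocampus and 0.26 CPM in SST cortex. It was lower in Grik hippocampus (0.186 CPM), CamK hippocampus (0.124 CPM) and CamK cortex (0.101 CPM). VIP cortex was the highest of the 8 groups in 2174 (64.8%) of these features and Scnn in 545 (16.3%), where VIP cortex was the highest in 24.5% of all features tested. The filter ran over all 8 groups, so faint features could be tested only because VIP cortex was high. That favours the rank of VIP cortex, which is a description only. The features with Scnn highest were less often faint: 34 of 51 at 100 CPM or more, but 238 of 2300 under 1 CPM. Since the set was chosen to be higher in Scnn than in CamK cortex, the place of these 2 groups is fixed by the choice.

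The set lower in Scnn had its highest median in CamK cortex, 3.2 CPM, followed by CamK hippocampus (2.18 CPM) and Grik hippocampus (1.97 CPM). Its lowest medians were in PV cortex (0.795 CPM) and Scnn (0.978 CPM), with VIP and SST groups between 1.45 and 1.55 CPM. PV cortex was the lowest group in 514 (35.3%) of the 1458 features and Scnn in 387 (26.5%), where over all features tested these shares were 17.7% and 11.1%. CamK cortex was the highest in 497 (34.1%). Here too the choice of the set fixes that CamK cortex is above Scnn, so the ranks of both are a description only.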

How the data were processed

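The authors deposited expected counts, estimated numbers of reads that can be fractional, for 56459 features. Per the submitters' processing notes, featureCounts, SAMtools, Picard, FastQC and the build GRCm38 were used, each without a stated role or version. Aligner, annotation, counting mode and strand setting are not stated, so overlapping or near-identical features are uncertain. Libraries were made with a stranded polyA kit, per the labels' protocols. Of the values above 0, 20.1% were whole (tolerance 1e-06). Among the whole values from 1 to 10, 94.1% were even, so a fragment appears to add about 2 counts. That reading rests on the whole values only. Another 12 columns of per-sample values match no sample of these labels and were not used. The length column was deposited without a definition.

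Counts were rounded and fitted with edgeR 4.0.16 (R 4.3.3) over all 32 libraries in 8 groups of 4: filterByExpr, TMM, robust quasi-likelihood F test, 24 residual degrees of freedom, Benjamini-Hochberg adjustment over all 24555 features kept. CPM are TMM-normalised; shares are of all counts of a library. Standard errors were taken as the log2 fold change over the square root of F. The fit was tested on simulated counts of 23653 features with no other difference between Scnn and CamK. It called 66 of 66 features simulated with a 4-fold change, 34 of 67 with 2-fold and 4 of 67 with 1.5-fold. Of the unchanged features it called 4 of 23453. The changed features were drawn only from those above 1 CPM in CamK, and all features and groups were given the same spread. Recovery of fainter features, and the effect of the unequal spread of Scnn and CamK, were therefore not tested. Library measures used exact permutation tests. The alternatives included DESeq2 1.42.0, other scalings and filters, and leaving out each library. The named features were the first 2 in each direction by the rule in the text. The 10 lists of 47 marker genes could not be tested, since identifiers carry no names. Replicates of a group differed by more than counting error, so none was counted as a duplicate. The comparison, the rules and the lists were chosen with earlier results of these data known.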

Additional observations from a re-analysis of the deposited data

Results flagged for a closer look

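In groups of 4 libraries, a value was singled out when its gap to the nearest other library took up most of the group's range (Dixon's test at 95%); 2 of 28 groups of values examined met this, and chance alone flags about 1 in 20. Scnn replicate 4 had the lowest share of counts in the features called lower in Scnn, 1.97% against 2.07% to 2.09% in the other Scnn libraries. CamK replicate 3 had 590 of the features called higher in Scnn at 1 CPM or more, against 530 to 533 in the other CamK libraries. Both gaps are small beside the difference between the populations.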

How the results depend on the processing

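Numbers of counts limit the faint features most: those called higher in Scnn had a median of 10 counts per CamK library, about 5 fragments if both mates were counted. Keeping only features with 1 CPM or more in 4 libraries tested 16643 features and called 2970, with 1921 (64.7%) higher in Scnn, 811 higher and 213 lower under 1 CPM, 575 and 33 past 8-fold higher and lower, 1542 also higher in VIP cortex against CamK hippocampus, a median length of 1985 for higher features, and coefficients of variation of 0.241 (Scnn) and 0.167 (CamK). The share of called features higher in Scnn, 69.7% as reported, was 73.7% with RLE scaling, 74.1% with library totals, 71.8% without the features above 1%, 73.3% with DESeq2, 67.8% with counts halved, 66.4% at an adjusted p under 0.01 and 65.4% with glmTreat against 1.5-fold. Without the fold threshold 10234 features passed, 5480 of them lower, and the share turned to 46.5%. Scaling by library totals moved the median log2 fold change from -0.01 to 0.08. With counts halved, 104 features were at least 8-fold lower. By the higher of both group means, 117 features at 100 CPM or more were lower.

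Same-numbered Scnn and CamK libraries did not deviate together (correlations of deviations from -0.01 to 0.04), so the shared replicate number was not taken as a pairing. Fitting the 8 libraries only called 3856 features without and 3670 with the replicate block; 961 and 970 exceeded 8-fold toward Scnn, 70 and 93 toward CamK. The 4 named features kept their calls under both.

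Leaving out each of the 8 libraries in turn gave 4231 to 4819 calls, with 65.7% (without Scnn replicate 2) to 74.5% (without Scnn replicate 1) higher in Scnn. The coefficient of variation ran from 0.256 to 0.354 in Scnn and from 0.186 to 0.22 in CamK. The difference in features at 1 CPM (525) became 41.5 at 5 CPM. The difference in the share of the 100 most abundant features ran from 3.01 to 5.76 percentage points, and its exact permutation p was 0.0857 without any 1 of the CamK libraries. For the 1000 most abundant it was 1.76 (exact permutation p = 0.0571). Without the features above 1%, an alternative chosen after seeing the data, it was -0.206. The 4 named features kept direction and call in every setting run.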
